A study of Mus musculus with 15 samples.

Results

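The collagen gene family was examined in pancreatic ductal adenocarcinoma (PDAC) tumours of mice. Its members were taken as every array probe whose platform gene symbol reads Col, digits, a, digits, which gave 91 of the 45281 probes on each array and 41 of the 19057 genes that have a probe. Each gene was represented by its probe with the highest mean over the 15 arrays. That probe was detected on at least 3 arrays for 29 of the 41 genes, which were tested, and on all 15 for 16. All mice were positive for αSMA-tk, a viral thymidine kinase driven by the promoter of alpha smooth muscle actin, the product of Acta2 and a marker of myofibroblasts, and had a mixed C57BL/6 and Balb/c background. The kinase turns the drug ganciclovir (GCV) toxic in dividing cells that carry it. The early control and late control groups carried the transgene and received no GCV. Mice labelled early ablation received GCV at the stage of pancreatic intraepithelial neoplasia, the precursor lesion, and mice labelled late ablation received it at the PDAC stage. The last group had late ablation plus an antibody to CTLA4, a receptor that restrains T cells. Each group has 3 bead arrays of total tumour RNA. The labels do not say whether the arrays of a group come from separate animals, so a p-value here reflects how much these arrays differ, which may be technical. They give neither the ages nor the sexes of the mice.

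Collagens are trimers of alpha chains wound into a triple helix. Fibrillar collagens (types I, III, V, XI and relatives) form the banded fibres of stroma, type IV forms the sheet of basement membranes, type VIII and X form other networks, and type VI forms beaded filaments next to cells. Types VII, XV and XVIII tie basement membranes to the stroma beneath, fibril-associated collagens coat the fibres, and transmembrane collagens span the cell surface. In pancreatic cancer, fibroblasts and stellate cells lay down most of the dense fibrillar stroma, while type IV chains also come from epithelial and vascular cells. The question of the design was how the tumour differs with and without these αSMA-positive myofibroblasts, and with checkpoint blockade added.

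All values below are log2 normalized signal and all differences are log2 differences between group means, with n = 3 arrays per group and errors as SD for means and SE for differences. Signal is comparable for 1 probe across arrays, and not between probes. Acta2, whose promoter drives the transgene, read 12.42, 11.46 and 11.44 on early control arrays 1 to 3 and 10.97, 13 and 13.57 on the arrays labelled early ablation. On late control arrays it read 12.81, 10.33 and 12.31, on late ablation arrays 12.54, 12.21 and 10.55, and with anti-CTLA4 9.64, 11.52 and 11.49. It was thus higher on 2 of the 3 arrays labelled early ablation than on any early control array, and the late groups overlapped, so every direction given below follows the labels. The share of detected probes was 38.5% to 43.5% per array and was higher on all early ablation arrays (41.3% to 43.5%) than on all early control arrays (38.5% to 39.4%). The first arrays of late control and of late ablation were each other's closest match (rank correlation 0.972), and early control arrays 2 and 3 alone carried bright H2-Ea (10.34 and 9.91, against at most 5.10 elsewhere).

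Col4a1 and Col4a2 encode the α1 and α2 chains of the common type IV collagen molecule, and their start regions are shown because both genes lie head to head and their signals were correlated across the arrays. In the RefSeq windows of build GRCm38.p6, which run from 250 bases before to 50 after each gene's start, Col4a1 lies on the minus strand (chr8:11312777-11313076) and Col4a2 on the plus strand (chr8:11312555-11312854). The starts lie 21 bases apart, at 11312826 for Col4a1 and 11312805 for Col4a2. By these starts each gene runs across the start of the other, with no gap between them. The 78 bases in capitals, chr8:11312777-11312854, are the same stretch read on opposite strands.
Col4a1: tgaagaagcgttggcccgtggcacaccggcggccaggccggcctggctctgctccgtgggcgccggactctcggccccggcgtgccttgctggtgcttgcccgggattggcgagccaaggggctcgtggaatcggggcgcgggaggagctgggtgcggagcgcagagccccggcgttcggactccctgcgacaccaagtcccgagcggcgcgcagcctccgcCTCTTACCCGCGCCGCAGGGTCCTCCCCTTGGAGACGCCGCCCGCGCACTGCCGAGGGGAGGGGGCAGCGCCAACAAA
Col4a2: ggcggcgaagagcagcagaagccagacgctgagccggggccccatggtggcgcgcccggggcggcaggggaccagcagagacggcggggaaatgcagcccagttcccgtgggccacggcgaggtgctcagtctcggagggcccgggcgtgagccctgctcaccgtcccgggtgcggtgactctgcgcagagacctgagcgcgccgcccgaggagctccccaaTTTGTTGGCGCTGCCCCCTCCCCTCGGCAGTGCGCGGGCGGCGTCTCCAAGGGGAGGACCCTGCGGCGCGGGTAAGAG
Col1a2, the gene of the α2 chain of type I collagen, is shown because its signal parted from that of its partner chain Col1a1 on the anti-CTLA4 arrays. Its window lies on the plus strand at chr6:4505368-4505667, and the capitals mark the motif CCAAT, found 109 bases upstream of the start and again, as ATTGG on the other strand, at the start itself.
Col1a2: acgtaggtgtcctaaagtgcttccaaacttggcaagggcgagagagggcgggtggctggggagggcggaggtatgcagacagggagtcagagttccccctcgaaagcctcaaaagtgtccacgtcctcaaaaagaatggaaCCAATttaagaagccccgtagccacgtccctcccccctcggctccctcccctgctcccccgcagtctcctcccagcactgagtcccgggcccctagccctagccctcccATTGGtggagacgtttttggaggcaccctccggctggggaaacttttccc
Of the 41 collagen genes, 33 had a window, 36 windows in all. CCAAT, searched as CCAAT or ATTGG, was present in 13 of the 36 (36.1%) and in 37.4% of the 32851 windows of all genes. GGGCGG, searched as GGGCGG or CCGCCC, was present in 23 (63.9%) against 35.7% of all windows. The motifs can share bases at their ends, and a match is a string of letters and not a measured binding site.

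The classes differed in how many members gave signal. Of 11 fibrillar genes, 9 were tested and 4 were detected on all arrays, namely Col1a1, Col1a2, Col3a1 and Col5a1. Type IV had 4 of 6 genes tested and 3 on all arrays (Col4a1, Col4a2 and Col4a5), the other network collagens 3 of 3 and 2 (Col8a1 and Col8a2), the beaded filament genes 2 of 5 and 2 (Col6a1 and Col6a2), and the basement membrane zone genes 3 of 3 and 3 (Col7a1, Col15a1 and Col18a1). Fibril-associated genes had 5 of 7 tested and 2 on all arrays (Col14a1 and Col16a1), transmembrane genes 1 of 4 and 0, and the unclassed Col26a1 and Col28a1 were tested with neither on all arrays. The 12 genes not tested were Col2a1, Col11a2, Col4a3, Col4a4, Col6a4, Col6a5, Col6a6, Col9a3, Col13a1, Col17a1, Col22a1 and Col25a1. The probe used was detected on no array for 9 of them and on 2 arrays each for Col11a2, Col17a1 and Col25a1. A dimmer Col11a2 probe, not used, was detected on 4 arrays, none of them early. With every probe as a feature it passed the test in no comparison, and its smallest limma adjusted p was 0.244, between the controls. Of the 91 probes, 39 were detected on no array. No probe carries the symbol Col6a3 or Col12a1, so the third type VI chain and type XII were not measured.

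Among the fibrillar genes, single arrays of the same group often differed more than the group means did. Col1a1, the α1 chain of type I collagen and the main fibre protein of stroma, read 9.76, 8.62 and 8.36 on early control arrays, 8.51, 9.35 and 10.84 on early ablation, 11.16, 7.22 and 9.91 on late control, 10.13, 9.69 and 8.75 on late ablation, and 9.01, 8.77 and 9.57 with anti-CTLA4. The highest and the lowest of all 15 values were both late control arrays (1 and 2), and no pair of compared groups was separate. Col1a2 read 8.74, 7.07 and 7.99, then 7.92, 8.95 and 10.20, then 8.54, 6.60 and 9.17, then 7.88, 8.84 and 6.52, and with anti-CTLA4 5.76, 5.91 and 6.46, in the same order of groups. All 3 anti-CTLA4 arrays were below every other array for Col1a2, the nearest being late ablation array 3. Col3a1, the type III chain that accompanies type I in young and healing stroma, read 8.56, 7.22 and 8.02 on early control, 7.43, 9.32 and 9.41 on early ablation, 9.05, 6.95 and 8.32 on late control, 8.72, 9.53 and 7.59 on late ablation, and 6.83, 7.59 and 8.39 with anti-CTLA4. Array 1 was the low one of the early ablation group for Col1a1, Col1a2, Col3a1 and Col5a1 alike. For Col5a1, the α1 chain of type V that sets fibril diameter, the values were 9.80, 11.40 and 12.05 on early ablation against 10.90, 9.91 and 10.21 on early control. Col5a2, its partner chain, was detected on 14 arrays and read 5.47, 6.58 and 7.59 on early ablation against 5.30, 4.96 and 5.70 on early control, with only array 1 inside the control range.

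**Figure D1:**
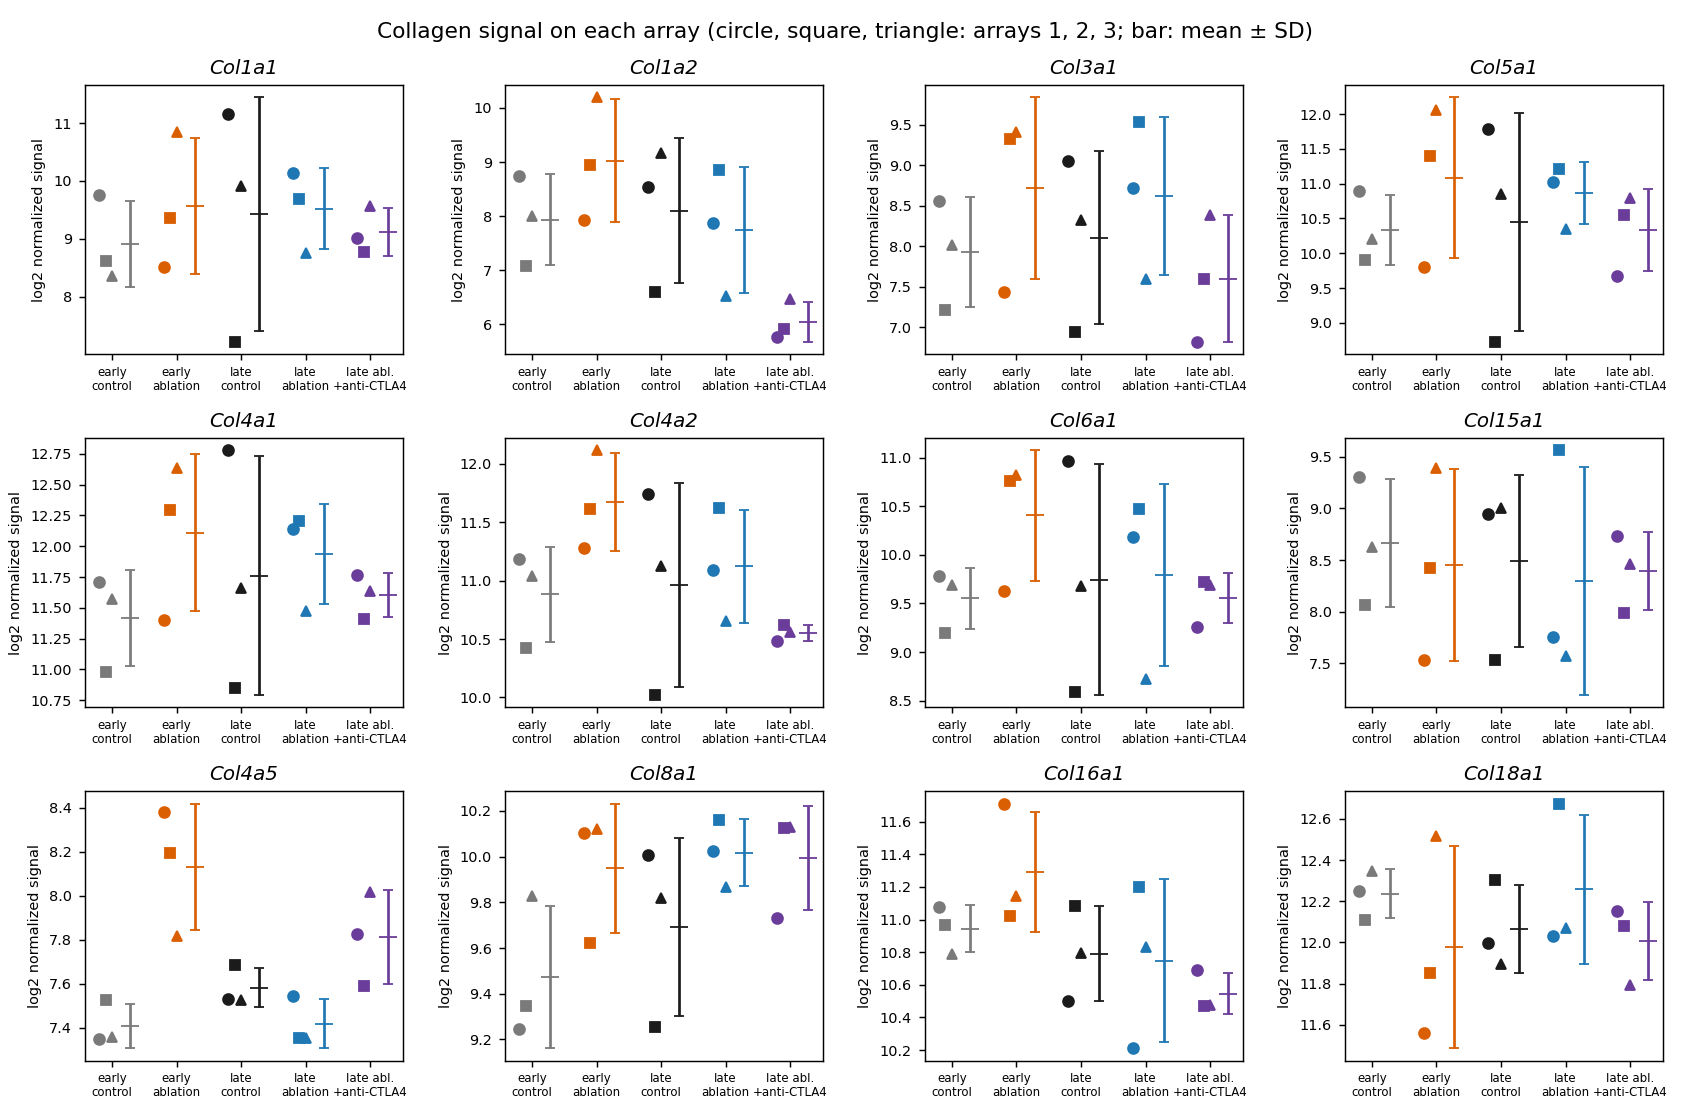
Log2 normalized signal of 12 collagen genes (vertical axes, one scale per gene) on each of the 15 arrays, by labelled group on the horizontal axes. Circles, squares and triangles are arrays 1, 2 and 3, and the bar beside them is the mean ± SD of 3 arrays. The 3 anti-CTLA4 arrays lie below all others for Col1a2, the early ablation arrays lie above all others except 2 anti-CTLA4 arrays for Col4a5, and late control spans the widest range for Col1a1.

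The type IV chains had narrower ranges. Col4a1 read 11.71, 10.98 and 11.57 on early control, 11.40, 12.30 and 12.64 on early ablation, 12.78, 10.85 and 11.66 on late control, 12.14, 12.20 and 11.47 on late ablation, and 11.77, 11.41 and 11.63 with anti-CTLA4. Col4a2 read 11.18, 10.42 and 11.04, then 11.28, 11.62 and 12.12, then 11.74, 10.02 and 11.13, then 11.09, 11.62 and 10.66, and with anti-CTLA4 10.48, 10.62 and 10.56. For Col4a2 all early ablation arrays were above all early control arrays, and all anti-CTLA4 arrays were below all late ablation arrays, whereas Col4a1 overlapped in both comparisons. Col4a5, an X-linked chain of the type IV molecules of kidney and other specialised basement membranes, read 7.35, 7.52 and 7.36 on early control, 8.38, 8.20 and 7.82 on early ablation, 7.53, 7.68 and 7.53 on late control, 7.55, 7.35 and 7.35 on late ablation, and 7.83, 7.59 and 8.02 with anti-CTLA4. Its early ablation arrays were all above its control arrays and array 1, the low array for type I, was its highest. Col8a1, the α1 chain of the short-chain network collagen of vessel walls, read 9.24, 9.35 and 9.83 on early control and 10.10, 9.62 and 10.12 on early ablation, with early control array 3 above early ablation array 2.

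Of the beaded filament genes, Col6a1 read 9.78, 9.20 and 9.69 on early control, 9.63, 10.76 and 10.82 on early ablation, 10.97, 8.59 and 9.68 on late control, 10.19, 10.47 and 8.72 on late ablation, and 9.26, 9.72 and 9.69 with anti-CTLA4. Arrays 2 and 3 of early ablation were above the early control arrays and array 1 was not. Col15a1 and Col18a1, the multiplexins of the basement membrane zone, did not share that order. Col15a1 read 9.31, 8.07 and 8.62 on early control and 7.53, 8.42 and 9.39 on early ablation, and Col18a1, whose product carries endostatin at its end, read 12.25, 12.11 and 12.35 against 11.56, 11.85 and 12.52. Col14a1, a fibril-associated collagen of mature fibres, read 5.25, 6.58 and 5.55 against 6.22, 6.23 and 6.05. All of these groups overlapped. Across the 16 genes detected on all arrays, the SD between arrays of a group was larger than the SD of the 5 group means for 14. For Col1a1 these were 1.16 and 0.28, and for Col15a1 0.81 and 0.14. The exceptions were Col1a2 (1.03 and 1.08) and Col4a5 (0.18 and 0.31). Means of 3 arrays vary less than single arrays even where groups do not differ, so this count does not show that groups were alike. The share over all features was not counted.

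Many collagen genes were high or low together on the same arrays, as the heat map of deviations shows. The median deviation of the 16 genes from their 15-array means was 0.18, -0.43 and -0.10 on early control arrays 1 to 3, -0.27, 0.44 and 0.89 on early ablation, and 0.73, -0.92 and 0.04 on late control. It was 0.10, 0.50 and -0.46 on late ablation, and -0.23, -0.37 and -0.12 with anti-CTLA4. In the early ablation, late control and late ablation groups, the array lowest in collagen (1, 2 and 3 in turn) was also the array lowest in Acta2. In the other groups it was not, since collagen was lowest on array 2 in both, and Acta2 on early control array 3 and anti-CTLA4 array 1. The lowest of all 15 arrays was late control array 2 and the highest was early ablation array 3.

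**Figure D2:**
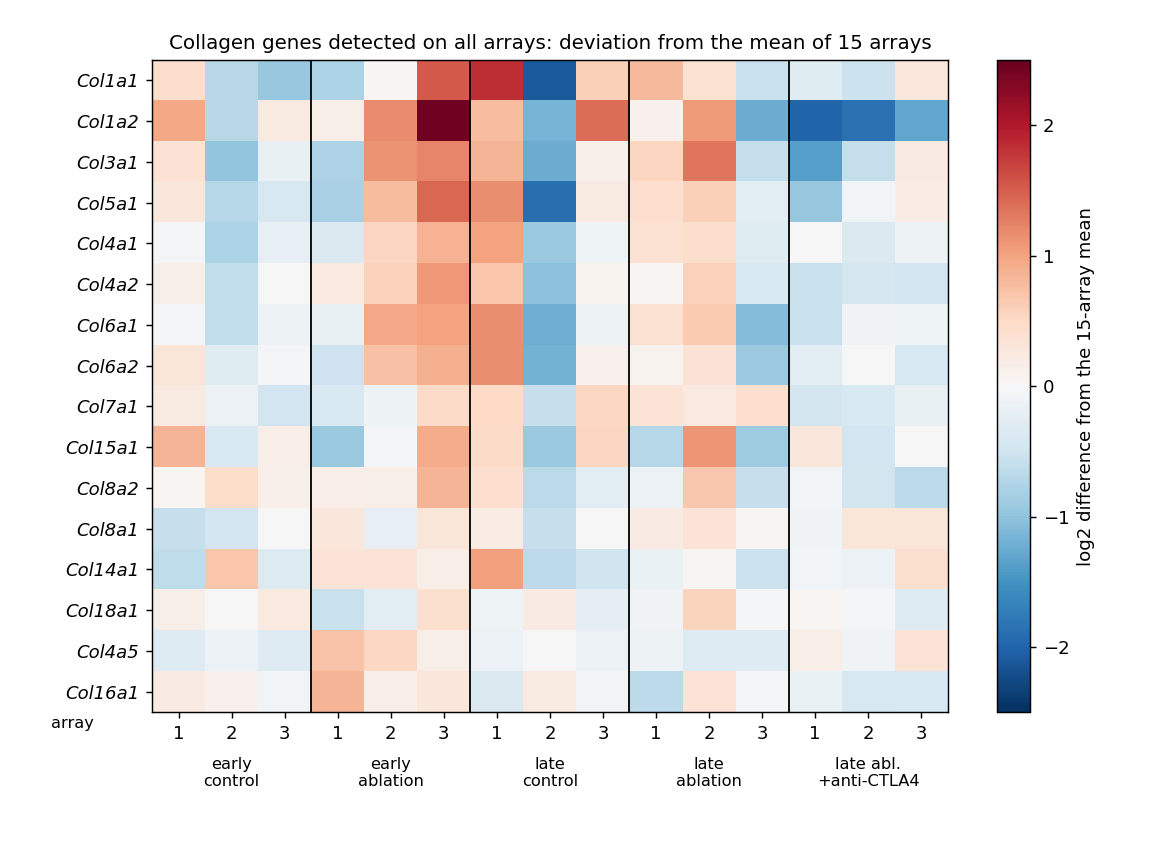
Deviation of each of the 16 collagen genes detected on all arrays from its own mean over the 15 arrays, on the log2 scale, with genes in rows and arrays, grouped by label, in columns. Red is above and blue below the mean. Most columns are of one colour from Col1a1 to Col6a2, with early ablation array 3 and late control array 1 red and late control array 2 blue, while Col1a2 is the deepest blue on the 3 anti-CTLA4 arrays.

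Early ablation was set against early control to ask how collagen signal differed when GCV was given at the precursor stage. The stromal and type IV chains averaged higher on the arrays labelled early ablation, by up to 1.22, but no collagen gene passed the test. Of the 29 genes, 0 had an adjusted p under 0.05 (limma, Benjamini-Hochberg over 15082 features), where 0% of all features did, and the smallest adjusted p was 0.460. At an unadjusted p under 0.05 there were 4 collagen genes, against 8.14% of all features. The difference was above 0 for 23 of the 29 genes with a median of 0.35, and for 14 of the 16 detected on all arrays with a median of 0.57, where 49.1% of all features were above 0 and their median was -0.01. Groups did not overlap for 5 genes that were higher (Col4a5, Col4a2, Col28a1, Col9a2 and Col26a1) and 1 that was lower (Col11a1), against 10.5% and 10.9% of all features, 21.4% in all. Col26a1 was detected on no array of either group (means 4.74 on early ablation and 4.57 on early control), so its order is one of background values.

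Col4a5 had the smallest p, with a mean of 8.13 ± 0.288 on early ablation and 7.41 ± 0.10 on early control, a difference of 0.72 (SE 0.185). Col28a1, whose product has domains like those of type VI collagen, was detected on all early ablation arrays (5.53, 6.60 and 6.35) and on 2 of 3 early control arrays (5.48, 5.20 and 4.70), a difference of 1.03 (SE 0.323, limma adjusted p = 0.537). The early ablation arrays were above the control arrays for Col28a1 by a narrow gap at array 1. A dimmer Col28a1 probe, not used, went the other way, with means of 4.99 on early control and 4.78 on early ablation. It was detected on 1 early ablation and 1 late ablation array only. Among fibrillar genes, the differences were 1.22 for Col5a2 (SE 0.586), 1.09 for Col1a2 (SE 0.728), 0.79 for Col3a1 (SE 0.667), 0.75 for Col5a1 (SE 0.681) and 0.66 for Col1a1 (SE 0.815). None of these passed the test, and each group pair overlapped. For type IV and type VI chains the differences were 0.79 for Col4a2 (SE 0.385), 0.69 for Col4a1 (SE 0.427), 0.85 for Col6a1 (SE 0.548) and 0.39 for Col6a2 (SE 0.514). Their errors were smaller than those of the fibrillar chains. Col8a1 differed by 0.48 (SE 0.240) and Col14a1 by 0.37 (SE 0.409).

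The genes that averaged lower on the early ablation arrays were not of the main stromal types. Col11a1, a minor fibrillar chain, read 5.10, 4.63 and 4.91 against 5.23, 5.46 and 5.23, a difference of -0.43 (SE 0.182), and was detected on 1 of 3 early ablation arrays. Col27a1, a fibrillar collagen known from cartilage, differed by -0.57 (SE 0.404), Col18a1 by -0.26 (SE 0.253) and Col15a1 by -0.22 (SE 0.582). By class, the median difference was 0.66 over 9 fibrillar genes, 0.71 over 4 type IV genes, 0.62 over the 2 beaded filament genes, 0.17 over 3 other network genes, 0.35 over 5 fibril-associated genes and -0.22 over the 3 basement membrane zone genes. Differences between classes were not tested. Col9a2, a fibril-associated chain of cartilage, was detected on no early control array (mean 4.49 ± 0.116) and on 2 of 3 early ablation arrays (4.99 ± 0.117). It had no fold bound above 1 (limma adjusted p = 0.566).

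The early differences of the fibrillar chains moved with the arrays used. Col1a1 differed by 0.02 without early ablation array 3 and by 1.19 without early ablation array 1, and by -0.19 without early control arrays 2 and 3. The same omissions gave 0.50, 1.64 and 0.28 for Col1a2, and the median over the 28 collagen genes still tested was 0.20 without early ablation array 3 and 0.21 without early control arrays 2 and 3. Over single omissions the difference ranged from 0.26 to 1.40 for Col5a1, from 0.70 to 1.76 for Col5a2 and from 0.43 to 1.44 for Col3a1. For Col4a5 the range over single omissions was 0.60 to 0.88.

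**Figure D3:**
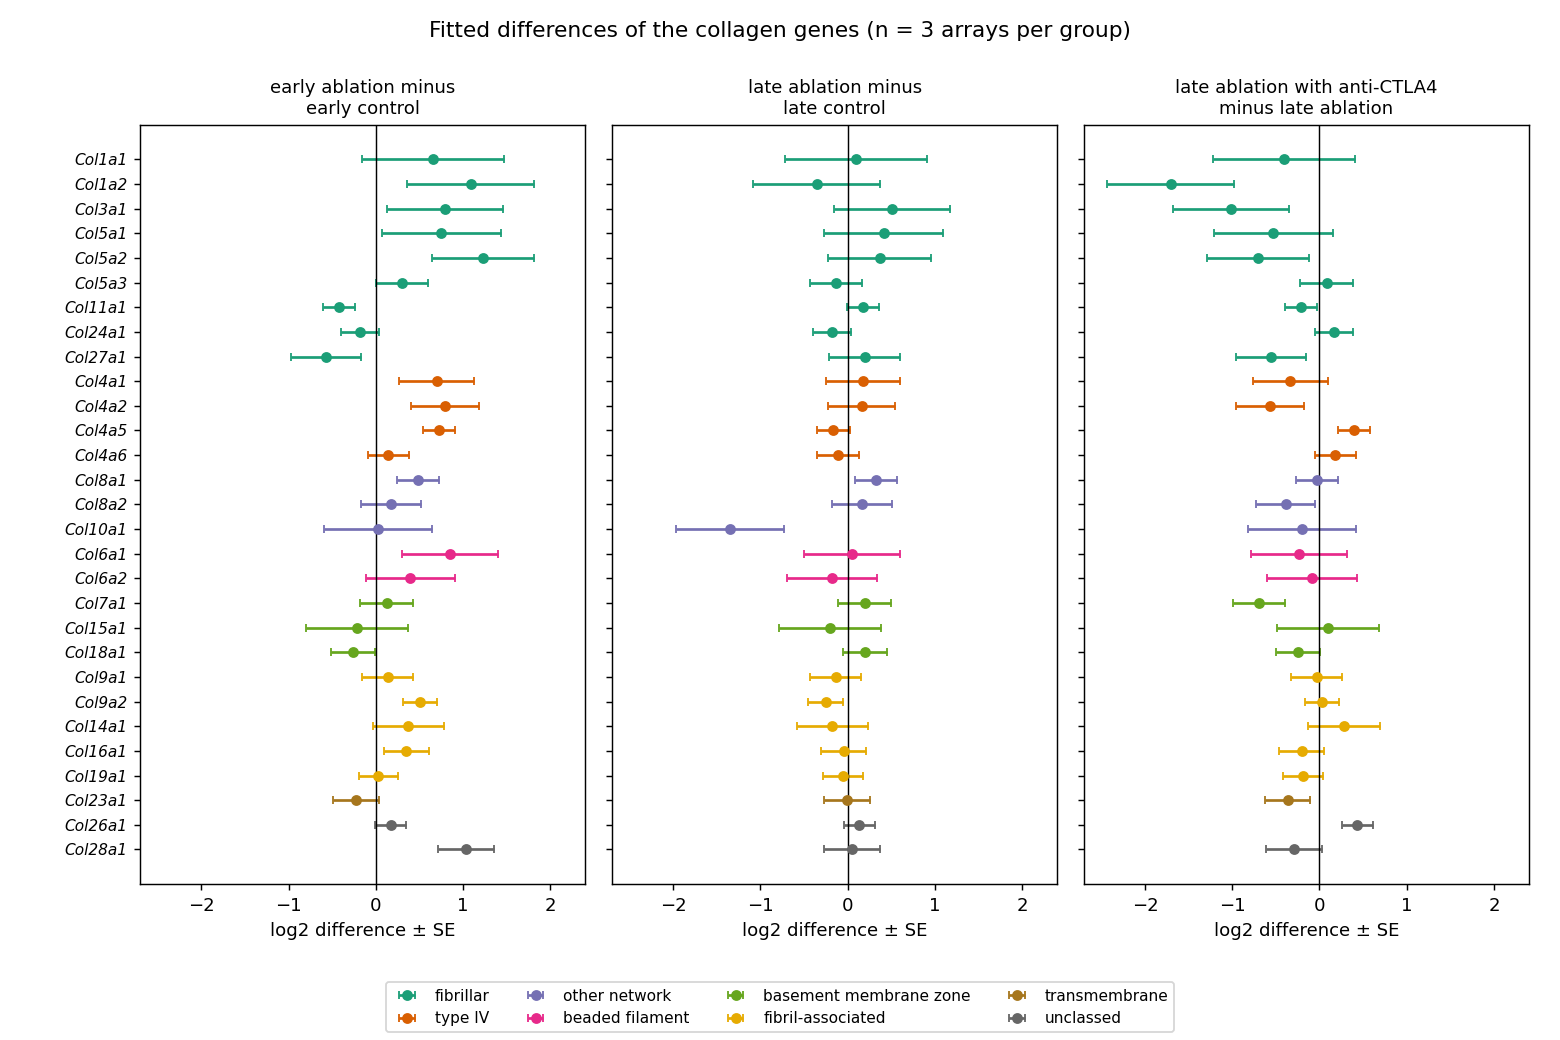
Fitted log2 differences (points) ± SE (bars) of the 29 tested collagen genes in 3 comparisons, with genes in rows, coloured by class, and the vertical line at 0. In the early comparison most points from Col1a1 to Col6a2 lie to the right of 0, in the late comparison they scatter around it apart from Col10a1 at -1.35, and with anti-CTLA4 the fibrillar genes Col1a2 (-1.70) and Col3a1 (-1.01) lie farthest to the left.

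Late ablation against late control asked the same question for GCV given once tumours were established. Collagen signal differed little on average between these groups, and the late control arrays spanned most of the range. None of the 29 genes had an adjusted p under 0.05 (0, against 0% of all features), the smallest adjusted p was 1.00, and 1 gene had an unadjusted p under 0.05, against 2.22% of all features. The difference was above 0 for 15 of 29 genes with a median of 0.05, and for 10 of the 16 genes detected on all arrays, where 47.1% of all features were above 0. Col10a1, the short-chain network collagen known from growth cartilage, had the smallest p. It read 5.57, 4.77 and 6.16 on late ablation and 6.85, 6.40 and 7.30 on late control, a difference of -1.35 (SE 0.622), and was the 1 gene whose groups did not overlap, against 4.51% of all features (1.91% higher and 2.6% lower). It was detected on 2 of 3 late ablation arrays. Its values on early control (5.22, 6.23 and 7.43) and early ablation (7.60, 5.26 and 6.09) ranged across those of both late groups.

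For the main stromal chains the late differences were 0.09 for Col1a1 (SE 0.815), -0.35 for Col1a2 (SE 0.728), 0.51 for Col3a1 (SE 0.667), 0.18 for Col4a1 (SE 0.427) and 0.05 for Col6a1 (SE 0.548). Without late control array 2 these were -1.02 for Col1a1, -1.10 for Col1a2, -0.07 for Col3a1, -0.28 for Col4a1 and -0.53 for Col6a1, so the sign turned for 4 of these 5 genes, and the median over the 28 collagen genes still tested was -0.23. By class the late medians were 0.18 over fibrillar, 0.02 over type IV, -0.07 over beaded filament, 0.16 over other network, -0.14 over fibril-associated and 0.19 over basement membrane zone genes. Col8a1 differed by 0.32 (SE 0.240), Col18a1 by 0.19 (SE 0.253) and Col4a5 by -0.16 (SE 0.185). Col9a2 was detected on no late ablation array (4.66 ± 0.325) and on 1 late control array (4.92 ± 0.170). Col11a1 was detected on no late control array (4.68 ± 0.040) and on 1 late ablation array (4.85 ± 0.261). Neither had a fold bound above 1.

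Late control against early control compares the 2 groups without GCV, which are named for the ablation groups they serve. All of their arrays are titled PDAC, so the difference is not read as one between tumour stages. The main stromal and basement membrane chains overlapped between these groups, and the genes with the smallest p were faint. No collagen gene had an adjusted p under 0.05 (0 of 29, against 0% of all features, smallest 0.305), and 4 had an unadjusted p under 0.05, against 9.93% of all features. The difference was above 0 for 18 genes with a median of 0.11, against 50.4% of all features. Groups did not overlap for 4 genes higher in late control (Col26a1, Col9a1, Col9a2 and Col4a5), against 9.74% of all features, and 1 lower (Col11a1), against 8.75%, 18.5% in all. Col11a1 was detected on all early control arrays (5.23, 5.46 and 5.23) and on no late control array (4.63, 4.69 and 4.71), which made it at least 1.21-fold higher in early control (means 5.31 and 4.68). That bound takes the lowest detected signal of an array where the gene was not detected, and leaves out the spread between arrays. Col26a1, Col9a1 and Col9a2 were detected on no early control array and on 1 late control array each, with no fold bound above 1. This holds for the probes used, and a dimmer Col9a1 probe was detected on 1 early control array and on no late control array (means 5.01 and 4.55). Col27a1 averaged 6.20 ± 0.421 in early and 5.50 ± 0.866 in late control, a difference of -0.70 (SE 0.404), and Col24a1, another minor fibrillar chain, 5.19 ± 0.219 and 4.81 ± 0.291, a difference of -0.38 (SE 0.218). The median over the 28 collagen genes still tested was 0.46 without late control array 2, -0.16 without late control array 1 and -0.20 without early control arrays 2 and 3.

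The stage dependence was tested as the late minus the early ablation difference, which shares its arrays with both. No collagen gene had an adjusted p under 0.05 (0 of 29, against 0% of all features, smallest 0.999), and 4 had an unadjusted p under 0.05, against 4.46% of all features. The term was below 0 for 23 of 29 genes with a median of -0.33, and for all but 3 of the 16 genes detected on all arrays with a median of -0.46, where 49.3% of all features were above 0. It was -0.89 for Col4a5 (SE 0.261), whose differences were 0.72 with early and -0.16 with late ablation, and -0.98 for Col28a1 (SE 0.456). On the other side stood Col27a1 at 0.77 (SE 0.572) and Col18a1 at 0.46 (SE 0.357). Col9a2 and Col11a1 were also among the 3 smallest p of a direction, but were not detected in at least 1 group. The median was -0.01 without late control array 1 and -0.82 without late control array 2.

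Anti-CTLA4 with late ablation was compared with late ablation alone to ask what checkpoint blockade adds. Fibrillar chains averaged lower on the anti-CTLA4 arrays, Col1a2 most, and no collagen gene passed the test. Of 29 genes, 0 had an adjusted p under 0.05, where 1 feature of 15082 did (0.00663%), the smallest adjusted p among collagens was 0.578, and 3 had an unadjusted p under 0.05 against 7.74% of all features. The difference was below 0 for 21 of 29 genes with a median of -0.21, and above 0 for 3 of the 16 genes detected on all arrays (median -0.29), where 49.3% of all features were above 0. Groups did not overlap for 2 genes that were higher (Col4a5 and Col26a1) and 3 that were lower (Col1a2, Col4a2 and Col7a1), against 5% and 5.31% of all features, 10.3% in all. The anti-CTLA4 arrays form a deposited table of their own, so treatment and table cannot be told apart.

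The difference was -1.70 for Col1a2 (SE 0.728, limma adjusted p = 0.600), which averaged 6.04 ± 0.371 with anti-CTLA4 and 7.75 ± 1.17 without. It was -1.01 for Col3a1 (SE 0.667), -0.70 for Col5a2 (SE 0.586), -0.53 for Col5a1 (SE 0.681) and -0.41 for Col1a1 (SE 0.815). Over single omissions the ranges were -2.32 to -1.16 for Col1a2, -1.52 to -0.55 for Col3a1, -1.04 to -0.38 for Col5a2, -0.78 to -0.19 for Col5a1 and -0.79 to -0.10 for Col1a1. For all 5 the difference farthest from 0 came without late ablation array 3. Col7a1, the anchoring fibril collagen, read 6.68, 6.75 and 6.95 with anti-CTLA4 and 7.49, 7.39 and 7.57 without, a difference of -0.69 (SE 0.301). The groups were separate, and late control array 2 (6.57) and early control array 3 (6.67) were as low as the anti-CTLA4 arrays. Among type IV chains, Col4a2 differed by -0.57 (SE 0.385) and Col4a1 by -0.33 (SE 0.427), while Col4a5 differed by 0.40 (SE 0.185). A dimmer Col4a5 probe, not used, was detected on all 15 arrays and went the other way, at -0.25 (SE 0.226). Col26a1, a small collagen with no class here, read 5.81, 5.64 and 5.20 against 5.14, 5.15 and 5.06, a difference of 0.44 (SE 0.178). The remaining named genes lay within their errors of 0 or close to them, at -0.24 for Col6a1 (SE 0.548), -0.08 for Col6a2 (SE 0.514), -0.02 for Col8a1 (SE 0.240), 0.10 for Col15a1 (SE 0.582), -0.25 for Col18a1 (SE 0.253) and 0.28 for Col14a1 (SE 0.409). The signs for Col6a1, Col6a2, Col8a1 and Col15a1 turned when single arrays were left out. By class the median was -0.53 over fibrillar, -0.08 over type IV, -0.16 over beaded filament, -0.20 over other network, -0.03 over fibril-associated and -0.25 over basement membrane zone genes, and differences between classes were again not tested. Col4a6 was detected on 1 anti-CTLA4 array (4.85 ± 0.454) and no late ablation array (4.66 ± 0.207).

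The 2 chains of type I collagen parted on the anti-CTLA4 arrays, a feature singled out after its values were seen. The molecule holds a pair of α1 chains and a single α2 chain. Col1a1 minus Col1a2 within an array was 3.25, 2.86 and 3.11 with anti-CTLA4, against 2.25, 0.84 and 2.23 on late ablation arrays, 2.63, 0.61 and 0.75 on late control, 0.59, 0.41 and 0.64 on early ablation, and 1.02, 1.55 and 0.37 on early control. All 3 anti-CTLA4 arrays were above the highest of the other 12, late control array 1. The group means were 3.07 ± 0.197, 1.78 ± 0.807, 1.33 ± 1.13, 0.55 ± 0.124 and 0.98 ± 0.592 in the same order. Because the 2 probes bind unequally, only the change of this gap between arrays can be read, and it was not tested. The gap between the anti-CTLA4 and late ablation means was 1.30, and ranged from 0.83 without late ablation array 2 to 1.53 without late ablation array 1.

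**Figure D4:**
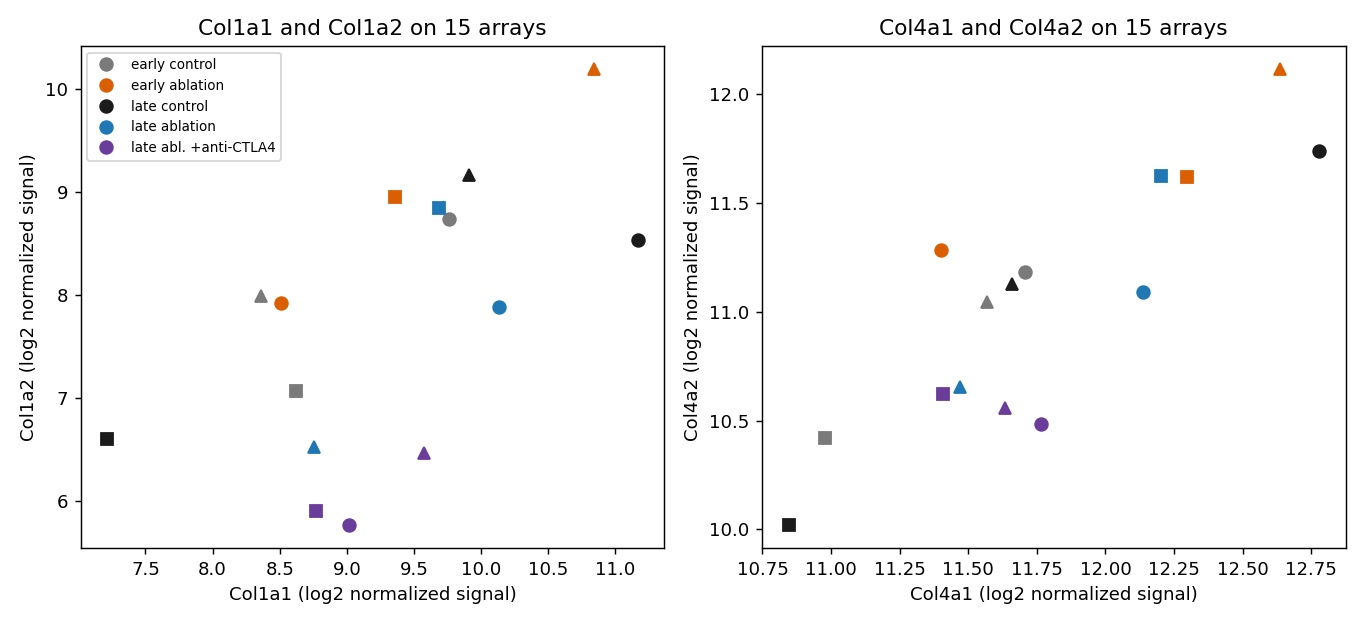
Log2 normalized signal of Col1a2 against Col1a1 (left) and of Col4a2 against Col4a1 (right), with one point per array, coloured by labelled group, and circles, squares and triangles for arrays 1, 2 and 3. In the left panel the anti-CTLA4 arrays lie apart, at Col1a1 of 8.77 to 9.57 and Col1a2 of 5.76 to 6.46. In the right panel the chains rise together with scatter (r = 0.86 over the 15 arrays, with group differences left in).

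Chains that build one molecule were high or low together across arrays within groups. For 7 pairs chosen for their biology, deviations from group means were correlated over the 15 arrays, with an exact two-sided permutation of arrays within groups (7776 arrangements) and Benjamini-Hochberg adjustment over the 7. The permutation shuffles each group on its own. It does not allow for likeness between arrays of different groups, such as late control array 1 and late ablation array 1. Col6a1 with Col6a2, the α1 and α2 chains of type VI, gave r = 0.97 (rho 0.96, exact p = 0.00103, adjusted p = 0.00720). Col4a1 with Col4a2, whose start regions are printed above, gave r = 0.92 (rho 0.81, exact p = 0.00283, adjusted p = 0.00990). Col5a1 with Col5a2 gave r = 0.86 (rho 0.71), and Col1a1 with Col1a2 gave r = 0.81 (rho 0.84), each with an adjusted permutation p of 0.0114 for r. With group differences left in, r was 0.61 for the type I pair and 0.86 for Col4a1 with Col4a2.

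Pairs of different collagen types were correlated too. Col1a1 with Col4a1 gave r = 0.89 (rho 0.87), Col1a1 with Col6a1 r = 0.83 (rho 0.79) and Col1a1 with Col3a1 r = 0.79 (rho 0.82), with adjusted permutation p of 0.0114, 0.0130 and 0.0114. The tie was thus not limited to chains of one molecule. Leaving out the 2 arrays farthest from the median of the first gene gave r of 0.95 for type VI, 0.83 for Col4a1 with Col4a2, 0.79 for type V, 0.84 for type I, 0.77 for Col1a1 with Col4a1, 0.73 for Col1a1 with Col3a1 and 0.66 for Col1a1 with Col6a1. Without late control array 1 and late ablation array 1, Col1a1 with Col6a1 had r = 0.72 and an adjusted permutation p of 0.0556.

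The correlation with Col1a1 varied among the collagen genes. Over 15 relations of Col1a1 with the other genes detected on all arrays, a family added after the values were seen, 9 had an adjusted permutation p under 0.05, the highest r being 0.93 for Col5a1, with 0.89 for Col7a1, 0.88 for Col6a2, 0.87 for Col4a2 and 0.71 for Col15a1. The 6 that did not pass were Col8a2 (r = 0.60), Col8a1 (0.47), Col14a1 (0.44), Col18a1 (0.10), Col4a5 (-0.38) and Col16a1 (-0.51). Without the 2 outermost arrays, late control 1 and 2, r was 0.66 to 0.84 for the 9, 0.36 for Col8a2, 0.01 for Col8a1, -0.14 for Col14a1, 0.46 for Col18a1, -0.37 for Col4a5 and -0.34 for Col16a1. By likeness to Col1a1 over the 15 arrays, the nearest gene was a type V chain. Arrays share their RNA, labelling and scaling steps, and pairs of other genes were not compared.

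For 27 of the 41 genes there was more than 1 probe, and second probes detected on at least 3 arrays did not always follow the one used. Both Col4a5 probes, each detected on all 15 arrays, were higher on early ablation (0.72 and 0.60), but with anti-CTLA4 they differed in sign (0.40 and -0.25). The second Col8a1 probe gave 0.83 in the early comparison against 0.48, and -0.62 with anti-CTLA4 against -0.02. The 2 Col5a2 probes gave 1.22 and 0.42 early and -0.70 and -0.80 with anti-CTLA4, the second being detected on no early control array. The 2 Col6a1 probes gave 0.85 and 0.75 early. Other second probes were dim. That of Col3a1 was detected on 6 arrays and on no early control array (means 4.87 and 4.86 in the early groups). Its early difference of -0.006, against 0.79 for the probe used, thus rests on no measured control level. It was detected on 1 late control, 1 late ablation and 2 anti-CTLA4 arrays. It gave 0.04 late against 0.51 and -0.34 with anti-CTLA4 against -1.01, and the 2 Col3a1 probes had r = 0.39. The second Col6a2 probe was detected on 6 arrays and on no late control array, and it gave 0.40 in the late comparison against -0.18. The second Col27a1 probe was detected on 6 arrays, 2 in each late group and none in either early group. It had the opposite sign to the probe used in every comparison. It gave 0.09 early against -0.57 and 0.69 between the controls against -0.70, both with no measured early level to rest on. It gave -0.05 late against 0.20, 0.03 with anti-CTLA4 against -0.56, and -0.14 for the stage term against 0.77. Over the 15 arrays the 2 probes had r = -0.06. Signs also differed in at least 1 comparison for Col14a1, Col23a1 and Col24a1, whose second probes were detected on 10, 6 and 3 arrays. Col1a1, Col1a2, Col4a1, Col4a2 and Col5a1 had 1 probe each.

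Genes that build and break down collagen were counted from lists of known members. Of 17 tested genes of hydroxylation, folding, propeptide cleavage and crosslinking, 0 had an adjusted p under 0.05 in any of the 5 comparisons. The difference was above 0 for 11 of the 17 early (median 0.35), 10 late (median 0.02), 11 between the controls (median 0.13) and 4 with anti-CTLA4 (median -0.28), and the stage term for 6 (median -0.26). In the early comparison the smallest p belonged to Bmp1, a protease that trims procollagen (0.83, SE 0.398), and Lox, the lysyl oxidase that starts crosslinking (1.65, SE 0.800). Colgalt1, which adds galactose to collagen, differed by -0.84 in the late comparison (SE 0.281), and P3h1, a prolyl hydroxylase, by -0.77 with anti-CTLA4 (SE 0.290).

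Of 12 tested collagen receptors and collagen-degrading enzymes, 0 had an adjusted p under 0.05 in any comparison, and the difference was above 0 for 7 early, 7 late, 6 between the controls and 3 with anti-CTLA4 (medians 0.15, 0.01, 0.05 and -0.20), with 4 for the stage term (median -0.24). Itga11, the fibroblast integrin that binds type I collagen, differed by 1.07 early (SE 0.301, limma adjusted p = 0.516), 0.91 between the controls (SE 0.301) and -1.07 with anti-CTLA4 (SE 0.301, limma adjusted p = 0.349). Mmp14, a membrane protease that cleaves fibrillar collagen, differed by 0.94 early and -0.74 with anti-CTLA4 (SE 0.285 for both). These comparisons share arrays, so their values are not independent of one another.

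Markers of cell types that make collagen, or that surround those cells, were counted in the same way, and none of any list passed the test in any of the 5 comparisons. The sums given here add the unlogged signal of different probes, so bright probes weigh most in them. How often sums of other genes were separate between groups was not counted. The 10 fibroblast markers were all above 0 early (median 0.92), and their summed signal was 14365 to 17068 on early ablation arrays against 5776 to 9033 on early control arrays, with no overlap. All 9 tested smooth muscle and pericyte markers were above 0 (median 0.65), with sums of 3718 to 14628 against 3628 to 6558, and all 8 tested macrophage markers (median 0.89), with sums of 17297 to 26664 against 10900 to 16133. Of 10 epithelial and ductal markers 1 was above 0 (median -0.27), with sums of 73982 to 81033 against 84378 to 98274. Acinar sums overlapped (3362 to 75895 against 22051 to 42634) and 2 of 9 markers were above 0, and endothelial sums were 3827 to 5854 against 2380 to 4112, with 8 of 10 above 0. Their part in the collagen differences was not tested, and in RNA of whole tumours fewer cells of a type and less RNA per cell cannot be told apart.

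In the late comparison 3 of 10 fibroblast, 2 of 9 smooth muscle and pericyte, 1 of 10 endothelial, 1 of 8 macrophage, 5 of 10 epithelial and 7 of 9 acinar markers were above 0. Fibroblast sums were 4498 to 12845 on late ablation and 5709 to 17617 on late control arrays. With anti-CTLA4 they were 5114 to 10776, with 4 of 10 fibroblast markers above 0 against late ablation alone, 2 of 9 smooth muscle and pericyte, 1 of 10 endothelial, 3 of 10 epithelial, 2 of 9 acinar and 6 of 8 macrophage markers. The sums overlapped between the late groups for fibroblasts. Cnn1 was the 1 smooth muscle marker not detected often enough to be tested. Pnlip, Cd68 and Emr1 have no probe of that symbol, while Adgre1, listed beside Emr1 for the same macrophage marker, was tested.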

How the data were processed

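Total tumour RNA of 15 samples was labelled as biotin cRNA and hybridised to Illumina bead arrays of 45281 probes, per the labels' protocols. Per the submitters' processing notes GenomeStudio was used, with a version not given in the sources used here. The deposited unnormalized tables, of 12 arrays and of 3 anti-CTLA4 arrays, hold a signal intensity per probe and array, neither background corrected nor scaled between arrays. They also hold, as deposited, a detection p-value per probe against the array's negative controls. A deposited value table also holds linear intensity, without centring or log. Every column there follows the unnormalized signal along a straight line (largest absolute residual 0.0862 to 0.104), so its direction is known, while how the authors chose the scale stays unknown. Column medians there were 24.2, 26.2 and 28.2 (early control), 18.7, 19.7 and 19.3 (early ablation), 21.9, 24.2 and 16.5 (late control), 19.5, 22.9 and 24.0 (late ablation) and 22.1, 24.6 and 25.0 (anti-CTLA4).

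Background was corrected on all 15 arrays together by normexp from the detection p-values (offset 16), followed by quantile normalization and log2, with limma 3.58.1 in R 4.3.3. A single gene symbol is given for 34885 probes, several for 18 and none for 10378. Each symbol was represented by its probe with the highest mean. Probes with several symbols or none stood alone. Features detected (p-value under 0.05) on 3 or more arrays numbered 15082, 11908 of them with a symbol. Group means were fitted by lmFit and tested two-sided with eBayes (adjusted p under 0.05 by Benjamini-Hochberg). This fit and test, without the background, scaling and filter steps, were also run on simulated normalized values. The simulated shifts were larger than any collagen difference in the main fit, so that run does not show whether smaller ones would be found. With 3 against 3 arrays an exact permutation test cannot go below 0.1, so none was run per gene. The number of arrays limits the precision.

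The members, pairs and lists were chosen with earlier results of these data known. Named are 13 main chains in the early and anti-CTLA4 comparisons (5 in the late one), the 3 genes with the smallest p per direction in each comparison, genes whose second probe disagreed in sign, and up to 2 genes per pathway list. The array quality weights, scaling, background, filter, probe and array choices tried are given at the end.

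Replicate numbers in the labels give 30 pairs of same-numbered arrays. Their deviations from the group means correlated at -0.28 to 0.58. All 3 late control and late ablation pairs were above 0.1 (0.58, 0.39 and 0.14), so a block by number was also run on the late groups. The labels state no pairing and the data do not settle one. Among arrays of other groups, 4 of the 15 arrays were closest in these deviations to one of their own number. By rank correlation, late control array 3 and late ablation array 2 were each other's closest match (0.963).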

Additional observations from a re-analysis of the deposited data

How the results depend on the processing

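No collagen gene passed the threshold in the main analysis or in any comparison when quantile was replaced by median scaling, the authors' deposited values, an offset of 50, no detection filter, every probe as a feature, the 12 arrays of the first table, any single array left out, or the pairs of arrays left out together. Array quality weights gave 1 collagen gene early (Col28a1, limma adjusted p = 0.0439) and 1 between the controls (Col11a1, limma adjusted p = 0.0402). With the replicate block the count of collagen genes stayed at 0 in all 5 comparisons and the median late difference was 0.05. With the replicate block on the late groups only it was 0.10, and the block changed no call. Median scaling shifted the median of all features by 0.25 early, 0.15 between the controls and -0.23 for the stage term. The chip as a block was not run, since the headers name no chip.

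All features called, as 0 early, 0 between the controls, 0 for the stage term and 1 with anti-CTLA4 in the main analysis, moved as follows. Early they were 6 with median scaling, 6 with the authors' values, 68 with array weights, 1 without late control array 1 and late ablation array 1, 1 without early control arrays 2 and 3, and 0 to 22 over single omissions. Between the controls they were 104 with the authors' values, 286 with array weights, 1 without early control arrays 2 and 3, and 0 to 1 over single omissions. For the stage term they were 1 without early control arrays 2 and 3 and 0 to 7 over single omissions. With anti-CTLA4 they were 2 with median scaling, 5 with the authors' values, 7 with no filter, 5 with every probe, 18 with array weights, 67 without late control array 1 and late ablation array 1, and 1 to 9 over single omissions. The cause was not tested.

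The median collagen difference between the controls was -0.20 without early control arrays 2 and 3 and -0.16 to 0.46 over single omissions, and that of the stage term -0.82 to -0.011. The r of Col1a1 with Col6a1 was 0.723 without late control array 1 and late ablation array 1 (adjusted permutation p = 0.0556).

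Signs turned as follows. In the early comparison Col15a1 was 0.14 with median scaling, 0.082 with array weights and -0.69 to 0.24 over single omissions, and Col1a1 was -0.19 without early control arrays 2 and 3. In the late comparison Col1a1 was -0.17 with array weights. Over single omissions Col1a1 ranged from -1.02 to 0.96, Col1a2 from -1.10 to 0.26, Col3a1 from -0.071 to 1.02, Col4a1 from -0.28 to 0.68, Col6a1 from -0.53 to 0.66 and Col18a1 from -0.014 to 0.32. With anti-CTLA4 and array weights, Col6a1 was 0.0066, Col6a2 0.14, Col8a1 0.086 and Col15a1 -0.21. Without late control array 1 and late ablation array 1, Col6a2 was 0.037 and Col15a1 -0.17. Over single omissions with anti-CTLA4, Col6a1 ranged from -0.77 to 0.11, Col6a2 from -0.46 to 0.18, Col8a1 from -0.10 to 0.11 and Col15a1 from -0.26 to 0.73. Pairs of arrays left out together, and the block on the late groups, were chosen after seeing the data. Signal over background limits the 13 tested genes that were not detected on all arrays, and 12 collagen genes gave no test.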
